A study of Danio rerio with 2 samples.

Results

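The mCherry- macrophages of the zebrafish tail described here are 104 single cells, 52 on each of 2 plates, out of 384 cells sorted as EGFP+mCherry- and 768 cells sorted in all. The embryos were at 3 days post-fertilization (dpf) and carried mpeg1:EGFP, in which the promoter of a macrophage gene drives a green protein, and runx1+23:mCherry, in which a runx1 enhancer drives a red protein in hematopoietic stem and progenitor cells (HSPCs). Both transgenes were present in every cell of both gates, and the study used red signal in a green cell to mark macrophages that had taken up material from HSPCs. The mCherry- cells filled wells 193 to 384 of a plate and the mCherry+ cells wells 1 to 192, so that the gate and the side of the plate cannot be told apart. Transcripts were measured by SORT-seq, in which each cell is sorted into a well and each captured molecule is tagged at its end with a well barcode and a unique molecular identifier (UMI), so that levels are numbers of molecules and are not divided by transcript length. The strain, and the number of embryos or sorts behind a plate, are not given in the sources used here, so p-values measure the spread between the sums of these plates, which may be technical.

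The macrophages were chosen by measured values of the same wells. A well needed 500 UMIs without spike-ins and 200 genes, at least 3 UMIs and 300 CPM (UMIs per 1000000 UMIs) over marco (a scavenger receptor), mpeg1.1 (a pore-forming protein of macrophages and the source of the EGFP driver) and c1qa (a chain of complement C1q), under 2% of UMIs from lyz (the lysozyme gene that leads zebrafish neutrophils) and under 100 UMIs of myl13 (a myosin light chain). On plate 1, 2 of the chosen wells held exactly 3 marker UMIs and 5 wells with 2 marker UMIs lay just outside. On plate 2 these numbers were 6 and 3. The lowest marker level inside was 442.5 CPM on plate 1 and 304.1 on plate 2, and the highest outside among wells with enough marker UMIs was 293.4 and 279.8. The highest share of lyz inside was 0.513% and 0.411%, and 1 well of plate 2 was left out for lyz, at 13.3%. The same thresholds gave 28 and 85 mCherry+ macrophage wells on plates 1 and 2, and 55 and 41 wells of the mCherry- gate with lyz at 2% or more served as neutrophil wells.

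Macrophages are tissue phagocytes that engulf dying cells and microbes, break them down in lysosomes and return iron and lipid to the body. They also sense microbes and damage through receptors that act on NF-kB, a family of transcription factors, and answer with cytokines, small secreted proteins that tell other cells to start or to end inflammation, and with chemokines, which attract leukocytes. In the tail of the fish embryo they are enriched in the caudal hematopoietic tissue, the niche in which HSPCs settle and expand. The cells described here were sorted from dissected tails, so their place within the tail is not known.

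The 52 macrophage wells summed to 543832 UMIs on plate 1 and 510179 UMIs on plate 2, against 344511 and 1407844 UMIs in mCherry+ macrophage wells. A single mCherry- macrophage well held 1367 to 28307 UMIs on plate 1 (median 10128) and 3299 to 19990 on plate 2 (median 8709), and the medians of mCherry+ macrophage wells were 12327 and 12714. Of the mCherry+ macrophage wells, 2 on plate 2 stood apart with 27.6% and 22.9% of their UMIs in muscle genes, and they made up 15.2% and 9.70% of the sum of that plate. Another 2 mCherry+ wells, 1 per plate, had 9.75% and 9.13% of their UMIs in globin genes. Among mCherry- macrophage wells the muscle list took at most 0.807% of a well on plate 1 and 2.16% on plate 2, and the erythroid list at most 0.0462% and 0.0606%. All 384 well names were shared by the plates, since they are the barcodes of the wells.

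The label held against macrophage genes that the rule did not use. The macrophage list without marco, mpeg1.1 and c1qa took 0.803 to 2.65% of the UMIs of a mCherry- macrophage well on plate 1 (median 1.33%) and 0.467 to 1.95% on plate 2 (median 1.38%), against medians of 1.52% and 1.59% in mCherry+ macrophage wells and 0.137% and 0.160% in neutrophil wells. No mCherry- macrophage well was as low as the highest neutrophil well, which reached 0.311% on plate 1 and 0.366% on plate 2. This did not hold for every mCherry+ macrophage well, since the lowest took 0.116% on plate 1 and 0.221% on plate 2. The 2 muscle-rich wells of plate 2 were among these low wells, at 0.221% and 0.314%. The neutrophil list without lyz took medians of 0.324% and 0.27% in mCherry- macrophage wells, 0.174% and 0.166% in mCherry+ macrophage wells and 3.6% and 3.59% in neutrophil wells. This list holds NCF1, an oxidase gene. It was at 177.7% and 152% of the neutrophil level in mCherry- macrophages and 43.5% and 45.8% in mCherry+ macrophages. The neutrophil genes npsn and EPX were at trace levels in both. npsn was at 0.86% and 0.55% against 0.63% and 0.38%, and EPX at 1.26% and 1.06% against 1.06% and 0.63%. lyz, a gene of the rule, was at 0.79% and 0.57% against 0.81% and 0.36%. The part of the list difference between the gates in the results that follow was not tested. Of the 27 identifiers of the whole macrophage list, 24 had UMIs in the mCherry- macrophages, and siglec15l, c1qc and the MPEG1 gene ENSDARG00000078569 were at 0. Both the 27 and the 24 include the 3 marker genes of the rule, which had UMIs because they chose the wells.

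**Figure D1:**
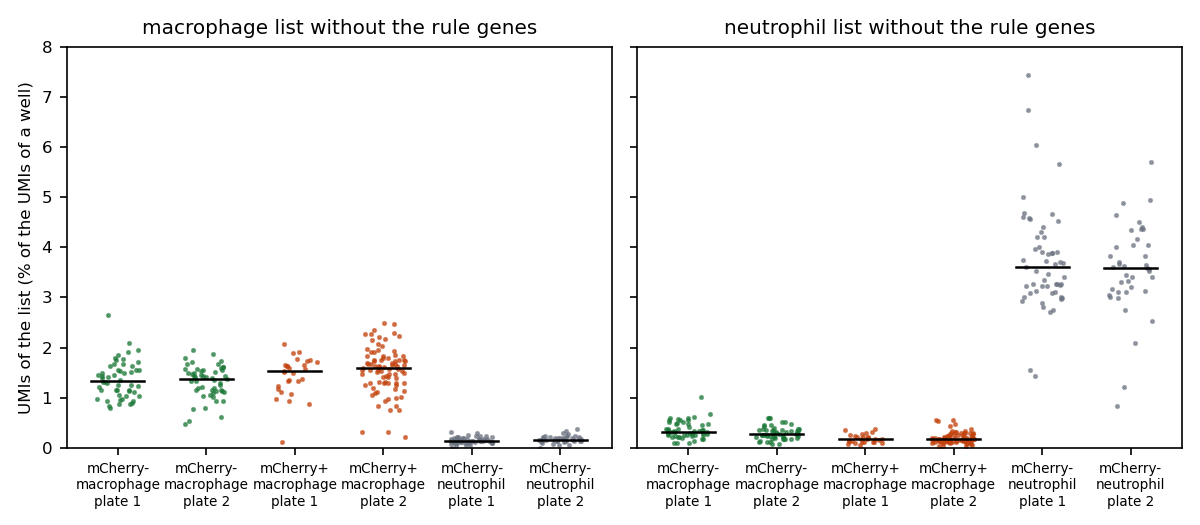
UMIs of the macrophage list (left) and of the neutrophil list (right), both without the genes of the rule, as a percent of the UMIs of each well. Points are single wells and black lines are medians, and mCherry- macrophage wells lie with most mCherry+ macrophage wells (medians 1.33 to 1.59% for the macrophage list) and apart from neutrophil wells (0.137 and 0.160%). Single mCherry+ macrophage wells lie as low as 0.116% on plate 1 and 0.221% on plate 2, within the range of neutrophil wells.

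Levels of genes are given from here on as CPM of the summed wells of a gate on a plate, without spike-ins. Some macrophage genes were at like levels on both plates, and others, CMKLR1 and IRF8 among them, were not. MFAP4 (ENSDARG00000088745), the gene of a fibrinogen-domain glycoprotein used as a macrophage marker in zebrafish, had 5174 and 5148 CPM on plates 1 and 2, and a second MFAP4 identifier (ENSDARG00000090783) had 2385 and 2506 CPM. How UMIs divide between these near copies is uncertain. lygl1, a goose-type lysozyme gene, had 1279 and 1277 CPM. ctss2.2, a cathepsin S gene, had 777 and 972 CPM, and CMKLR1, the receptor of the attractant chemerin, had 731 and 430 CPM. The transcription factors of the macrophage lineage were present as well. SPI1 had 589 and 382 CPM, spi1a had 370 and 541 CPM, and IRF8, which macrophages need to form, had 138 and 70.6 CPM, against 0 and 2.73 CPM of IRF8 in neutrophil wells. Of the 16 genes of this list that could be tested against mCherry+ macrophage wells outside the rule, 8 had a positive and 8 a negative fold, with a median log2 fold of 0.02, and 0 passed the threshold. The genes of the rule themselves, which chose the wells, had 866 and 555 CPM (marco), 668 and 646 CPM (mpeg1.1) and 53.3 and 60.8 CPM (c1qa), against 2203 and 1522, 934 and 762, and 145 and 140 CPM in mCherry+ macrophage wells.

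Abundant genes were ranked without mitochondrial and ribosomal protein genes. Among the genes ranked, cytoskeletal, translation and heat shock genes were prominent in the mCherry- macrophages. The most abundant transcript on both plates was ENSDARG00000080337, a gene without a symbol in the table used, with 102750 and 58572 CPM. It was followed by the actin gene actb2 with 21109 and 20418 CPM and by tmsb4x, the gene of an actin-binding thymosin, with 12933 and 15682 CPM. The translation factor gene eef1a1l1 had 9843 and 10249 CPM. The chaperone genes HSP90AA1 and HSPA8 had 8519 and 6691 CPM and 7431 and 7089 CPM. Syndecan gene sdc4 had 4682 and 5540 CPM, and olmf4l1 had 5748 and 2933 CPM, while neutrophil wells had 171 and 380 CPM of sdc4 and 96.9 and 104 CPM of olmf4l1. Levels that differed between the plates were also found among these genes. The heat shock gene hsp70l had 2814 CPM on plate 1 and 9171 CPM on plate 2, and the ferritin gene fthl27 had 5236 and 1480 CPM. The 15 most abundant genes took 22.9% and 19.3% of the UMIs. The 13 genes with a mitochondrial symbol took 5.24% and 5.84%, and 81 ribosomal protein genes 10.7% and 9.90%, against 4.88% and 5.49% and 10.2% and 8.94% in mCherry+ macrophage wells, and 3.09% and 3.33% and 5.85% and 6.69% in neutrophil wells. Genes without a symbol, ENSDARG00000080337 among them, could not be placed in either class, so the mitochondrial share may be higher.

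Among genes abundant enough to be ranked, single mCherry- macrophages differed most from each other in a small number. The measure used, variance over mean, tends to be larger for abundant genes, and rare genes were not ranked. With every well thinned to 2000 UMIs, 503 genes had a mean of 0.5 UMIs or more on both plates, and the variance of UMIs over wells divided by their mean had a median of 1.36 on plate 1 and 1.31 on plate 2, where sampling alone gives about 1. On both plates 53 genes were over 2. Ranked by the lower of both plates, the leading gene was the most abundant one, ENSDARG00000080337, at 107 and 35.3. It was followed by hsp70l at 15.9 and 10.6, with 112 to 26490 CPM in single wells on plate 1 and 163 to 32140 CPM on plate 2. Next came the abundant actb2 at 9.84 and 5.66, with a narrower range of 5056 to 41540 CPM and 8669 to 50430 CPM. HMOX1, the gene of heme oxygenase, which breaks heme down to iron, was at 19.3 and 5.14. The median mCherry- macrophage well held 80.1 and 112 CPM of HMOX1 and the highest 15990 and 5490 CPM. The chemokine genes ccl34b.1 (4.81 and 11.3) and ccl35.2 (3.08 and 8.44) were also over 2. So were HSPB1, a small heat shock protein gene (9.03 and 5.37), tuba5, a tubulin gene (3.51 and 4.06), and selenop, the gene of the selenium carrier selenoprotein P (4.24 and 2.96).

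To ask which transcripts set the macrophages of this gate apart, the sums of mCherry- macrophage wells were compared with the sums of mCherry+ macrophage wells. Of 5115 genes tested with edgeR's quasi-likelihood test, with the plate as a block, 219 (4.28%) had an adjusted p under 0.05. In the mCherry- macrophages 94 of them (1.84% of the genes tested) were higher, with a median log2 fold of 1.95, and 125 (2.44%) were lower, with a median of -2.49, beside a median of -0.02 over all genes tested. The higher genes included 7 of the 30 tested genes of the NF-kB and inflammatory response list. The lower ones included 3 of 6 of the heme and iron list, 4 of 27 of the lysosome list and 5 of 15 of the lipid list. These calls rest on few sums, and many of them were lost when the wells summed were changed. Without the largest well of each sum 3 genes passed (0 higher, 3 lower: the globin genes hbae3 and HBE1, the last with 2 identifiers). Without the 2 muscle-rich wells and all wells over 1% globin 30 passed (8 higher, 22 lower). The 94 higher genes kept their sign in every alternative that tested them. Their median log2 fold was 1.87 and 1.89 in these 2 fits, and the unadjusted edgeR p of each was under 0.05. They were picked by the first fit on mostly the same wells, so this is not independent support. The named higher genes then had adjusted p from 0.0747 to 0.169 without the largest wells and from 0.0379 to 0.124 without the muscle-rich and globin-rich wells. There were 2 genes with 20 UMIs or more in the mCherry- macrophages and 0 UMIs in the mCherry+ macrophage wells, the cytokine gene IL10 and ocstamp, a gene of osteoclast fusion, whose 32 UMIs lay with 31 on plate 1. In the other direction 64 genes with 20 UMIs or more in mCherry+ macrophage wells had 0 UMIs in the mCherry- macrophages. The sums were of unlike size, with 1407844 UMIs in mCherry+ against 510179 in mCherry- macrophage wells on plate 2. Several of the 64 had UMIs only on plate 2, which held the muscle-rich wells, such as cav3 (99 UMIs), CACNG1 (65) and NEXN (40). Others lay mostly on plate 1, such as CCN2 (57 and 4 UMIs). The share over all genes was not computed, so the 64 are not a set particular to mCherry+ macrophages.

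The cytokine genes IL10 and il12a were higher in mCherry- macrophages. IL10 encodes a cytokine that ends inflammation. It had 38.7 and 29.4 CPM in mCherry- macrophages on plates 1 and 2 (21 and 15 UMIs), against 0 and 0 UMIs in mCherry+ macrophage wells, which is at least 19.97-fold higher with 3 UMIs over both mCherry+ sums as the floor (edgeR adjusted p = 0.0306). It was seen in 3 of 52 wells on plate 1, where 1 well held 71.5% of its UMIs, and in 10 of 52 on plate 2, against 0 of 28 and 0 of 85 mCherry+ macrophage wells. Neutrophil wells held more, with 140 and 109 CPM and UMIs in 26 of 55 and 16 of 41 wells. The IL10 level of mCherry- macrophages was 27.6% and 26.9% of that of the neutrophil wells. Macrophage wells with IL10 held 0.0175 to 0.0345% of lyz on plate 1 and 0.0260 to 0.109% on plate 2, and wells without it 0 to 0.513% and 0 to 0.411%. At 2000 UMIs per well IL10 was seen in 3.92% of mCherry- macrophage wells on plate 1 (exact 95% interval 0.478 to 13.5%) and 3.85% on plate 2 (0.469 to 13.2%), which does not part them from 0% of mCherry+ macrophage wells (0 to 12.3% and 0 to 4.30%).

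il12a encodes one subunit of interleukin 12, which drives lymphocytes toward interferon gamma. It had 40.5 and 64.7 CPM in mCherry- macrophages (22 and 33 UMIs), 2.90 and 3.55 CPM in mCherry+ macrophage wells and 0 and 2.73 CPM in neutrophil wells. The log2 fold was 3.86 (SE 0.60, edgeR adjusted p = 0.0121), with 2.97 on plate 1 and 3.19 on plate 2. The UMIs lay in 4 of 52 wells on plate 1, with 68.2% in 1 well, and in 10 of 52 on plate 2, against 1 of 28 and 2 of 85 mCherry+ macrophage wells. The partner subunit genes were near 0, with 2 and 0 UMIs of il12ba and 0 and 3 UMIs of il12bb in mCherry- macrophages. IL10, which was in 3 and 10 of the 52 wells, was seen together with il12a in 0 wells on plate 1 and 1 well on plate 2. il12a was seen with tnfa in 3 of its 4 wells and 7 of its 10, and with tnfb in 4 of 4 and 10 of 10. Of all 52 wells of a plate, tnfa was seen in 18 and 25 and tnfb in 36 and 51. With so few wells these overlaps were not tested, and they do not show that the genes avoid or accompany each other.

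A further cytokine gene was broadly present, il1fma, a member of the interleukin 1 family, which was singled out after its values were seen. It had 236 and 208 CPM in mCherry- macrophages, 61.0 and 48.3 CPM in mCherry+ macrophage wells and 10.3 and 5.46 CPM in neutrophil wells, with UMIs in 39 and 35 of 52 mCherry- macrophage wells against 10 of 28 and 33 of 85. The log2 fold was 1.93 (SE 0.32, edgeR adjusted p = 0.0161), with 1.99 and 1.79 on the plates. No single well held more than 9.39% of its UMIs.

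The tumor necrosis factor genes did not pass. tnfa had 97.5 and 450 CPM in mCherry- macrophages and 72.6 and 156 CPM in mCherry+ macrophage wells (log2 fold 0.96, SE 0.34, edgeR adjusted p = 0.166), with UMIs in 18 and 25 of 52 wells against 6 of 28 and 39 of 85. tnfb had 265 and 1680 CPM, against 1018 and 1254 CPM, with log2 folds of -1.84 on plate 1 and 0.17 on plate 2 (edgeR adjusted p = 0.418). The level of both genes in mCherry- macrophages was several-fold higher on plate 2. il11b, of the interleukin 6 family, had 47.8 and 39.202 CPM against 14.5 and 5.68 CPM and just failed to pass the threshold (log2 fold 2.19, SE 0.54, edgeR adjusted p = 0.0547). m17, another gene of that family, had 123 and 271 CPM against 367 and 349 CPM (edgeR adjusted p = 0.135). The progranulin gene grna had 567 and 583 CPM against 1202 and 906 CPM (edgeR adjusted p = 0.136). tgfb1a had 51.5 and 21.6 CPM against 17.4 and 23.4 CPM, tgfb1b had 58.8 and 92.1 CPM against 92.9 and 73.2 CPM, and MIF had 40.5 and 68.6 CPM against 63.9 and 41.9 CPM, with edgeR adjusted p of 0.718, 0.845 and 0.994.

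The 3 lower calls of the cytokine list were igf2b, tnfsf12 and hbegfa. igf2b, the gene of insulin-like growth factor 2, fell to 34.9 and 49.0 CPM in mCherry- macrophages, against 244 and 212 CPM in mCherry+ macrophage wells (log2 fold -2.52, SE 0.34, edgeR adjusted p = 0.00835). It was seen in 9 and 15 of 52 mCherry- macrophage wells, and in 22 of 28 and 62 of 85 mCherry+ macrophage wells. tnfsf12, the gene of the TNF-related ligand TWEAK, fell to 29.4 and 86.2 CPM against 226 and 176 CPM (log2 fold -1.97, SE 0.42, edgeR adjusted p = 0.0356). hbegfa, a gene of heparin-binding EGF-like growth factor, fell to 2 and 3 UMIs, or 3.68 and 5.88 CPM, against 34.8 and 41.2 CPM (log2 fold -3.05, SE 0.64, edgeR adjusted p = 0.0328). Neutrophil wells held 70.11 and 115 CPM of hbegfa, so it was low in the macrophages of this gate and not in the gate as a whole. Over the whole cytokine list, 33 of 43 identifiers had UMIs in mCherry- macrophages and 14 were tested. Of these 2 were called higher and 3 lower, beside 1.84% and 2.44% of all genes tested. The median log2 fold was -0.52, beside -0.02 over all genes.

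**Figure D2:**
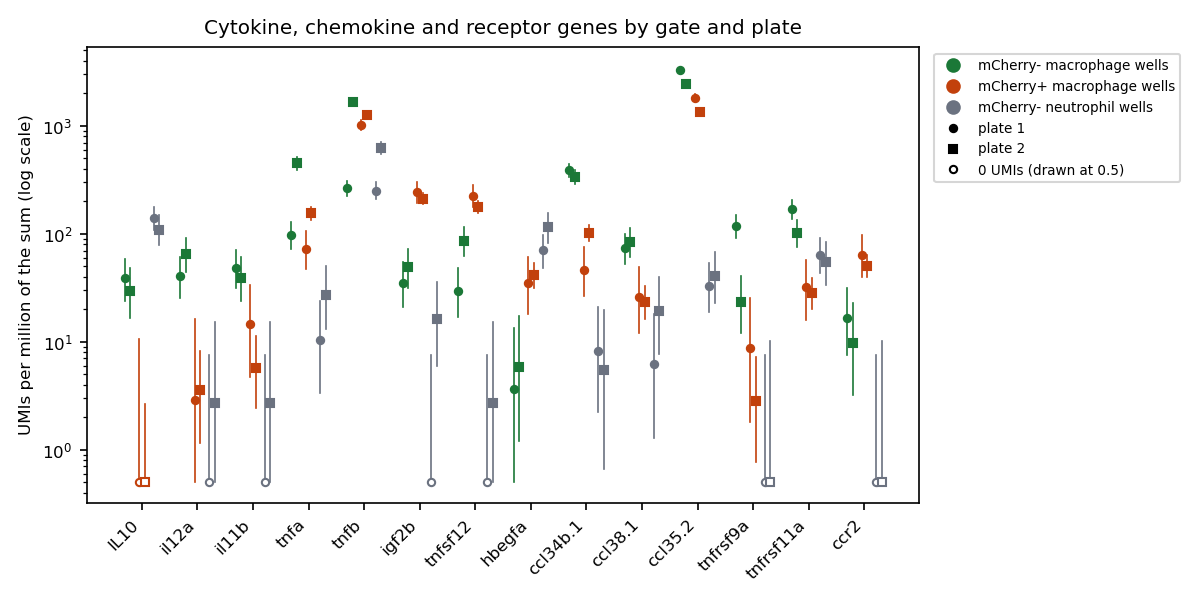
Level of cytokine, chemokine and receptor genes on a log axis of CPM, with exact 95% Poisson intervals that cover counting error only, in mCherry- macrophage, mCherry+ macrophage and mCherry- neutrophil wells of plate 1 (circles) and plate 2 (squares). Open symbols stand for 0 UMIs and are drawn at 0.5, and IL10 is at 38.7 and 29.4 in mCherry- macrophages with 0 UMIs in both mCherry+ macrophage sums.

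Chemokine transcripts of the mCherry- macrophages came mainly from one gene, ccl35.2, with 3305 and 2433 CPM, against 1811 and 1355 CPM in mCherry+ macrophage wells and 33.0 and 41.0 CPM in neutrophil wells. It was seen in 52 and 46 of 52 wells, and its log2 fold of 0.77 between the gates did not pass (SE 0.30, edgeR adjusted p = 0.205). ccl34b.1 rose, with 386 and 337 CPM in mCherry- macrophages, against 46.5 and 101 CPM in mCherry+ macrophage wells (log2 fold 2.19, SE 0.42, edgeR adjusted p = 0.0265). Its UMIs were concentrated in few cells. It was seen in 24 and 19 of 52 wells, 2 wells held over 50% of the UMIs on each plate, and the highest held 39.9% and 35.21%. ccl38.1 rose more evenly, with 73.6 and 84.3 CPM against 26.1 and 23.4 CPM (log2 fold 1.58, SE 0.37, edgeR adjusted p = 0.0463). ccl38a.5 had 33.1 and 54.9 CPM against 8.71 and 30.6 CPM, and cxcl11.6 had 22.1 and 45.1 CPM against 26.1 and 19.9 CPM, with edgeR adjusted p of 0.319 and 0.676. ccl34b.8, with 13 and 7 UMIs, was too low to be tested. Of 23 chemokine identifiers 17 had UMIs, 5 were tested and 2 were called higher, beside 1.84% of all genes tested, and all 5 tested genes had a positive fold.

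Among 22 receptor genes tested, 2 were called higher and 1 lower, beside 1.84% and 2.44% of all genes tested. tnfrsf9a, a fish gene of the receptor family that holds the costimulatory receptor 4-1BB, had 118 and 23.5 CPM in mCherry- macrophages, against 8.71 and 2.84 CPM in mCherry+ macrophage wells and 0 in neutrophil wells (log2 fold 3.3, SE 0.54, edgeR adjusted p = 0.0140). On plate 1, 1 well held 42.3% of its UMIs. tnfrsf11a, the gene of RANK, which receives the signal for osteoclast formation, had 169 and 102 CPM against 31.9 and 28.4 CPM (log2 fold 1.97, SE 0.38, edgeR adjusted p = 0.025). ccr2, the gene of the receptor through which monocytes are drawn to inflamed tissue in mammals, fell to 16.5 and 9.80 CPM against 63.9 and 50.4 CPM (log2 fold -2.20, SE 0.46, edgeR adjusted p = 0.0344). CCR9 had 42.3 and 64.7 CPM against 75.5 and 64.7 CPM and cxcr3.2 had 164 and 351 CPM against 320 and 227 CPM, with edgeR adjusted p of 0.555 and 0.845.

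The list of NF-kB and inflammatory response genes, which is wider than NF-kB itself, had the most higher calls. Of 30 genes tested, 7 were called higher and 0 lower, beside 1.84% and 2.44% of all genes tested. A positive fold was found for 22, and the median log2 fold was 0.86 (1.18 on plate 1 and 0.65 on plate 2). REL, an NF-kB subunit, had 768 and 669 CPM in mCherry- macrophages, against 296 and 210 CPM in mCherry+ macrophage wells (log2 fold 1.44, SE 0.31, edgeR adjusted p = 0.0356). The median well held 764 and 617 CPM of REL, against 250 and 168 CPM. bcl3, an IkB protein that binds NF-kB in the nucleus, had 361 and 45.1 CPM, against 8.71 and 4.97 CPM, with a log2 fold of 4.1 (SE 0.57, edgeR adjusted p = 0.00919). It was seen in 41 of 52 wells on plate 1 but in 14 of 52 on plate 2, against 3 of 28 and 5 of 85, and the plate folds were 5.05 and 2.40. BIRC2, a ubiquitin ligase of TNF receptor signaling, had 868 and 598 CPM against 241 and 220 CPM. tnip2, an inhibitor of NF-kB that binds A20, had 287 and 449 CPM against 128 and 133 CPM. ACOD1, the enzyme that makes the antimicrobial metabolite itaconate, was seen in 52 of 52 wells on both plates, with 4661 and 3930 CPM against 1841 and 1467 CPM (log2 fold 1.3, SE 0.29, edgeR adjusted p = 0.0443). GPR84, a receptor for medium-chain fatty acids, had 1074 and 540 CPM against 235 and 176 CPM, and TIMP2, an inhibitor of matrix metalloproteinases, had 764 and 337 CPM against 154 and 118 CPM. Neutrophil wells of the gate shared part of this. The whole list took 1.64% and 1.84% of the UMIs of mCherry- macrophages, 1.82% and 1.73% in neutrophil wells and 1.07% and 0.938% in mCherry+ macrophage wells. The GPR84 level of mCherry- macrophages was 172% and 98.2% of the neutrophil level, and that of REL 230% and 211%. BIRC2 was at 131.8% and 123%, and TIMP2 at 203.5% and 74.4%. ACOD1 was far lower in neutrophil wells, with UMIs in 25 of 55 and 26 of 41 wells and a median well of 0 and 96.2 CPM. bcl3 was seen in 12 of 55 and 7 of 41 neutrophil wells.

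A gene of the oxidative burst rose as well. NCF1, the p47 organizer subunit of the phagocyte NADPH oxidase, had 2409 and 1926 CPM in mCherry- macrophages, against 590 and 580 CPM in mCherry+ macrophage wells and 1356 and 1267 CPM in neutrophil wells (log2 fold 1.80, SE 0.33, edgeR adjusted p = 0.0225). It was seen in 51 of 52 wells on both plates, with a median well of 2179 and 1964 CPM against 502 and 511 CPM. All 11 tested genes of the pan-leukocyte list had a positive fold, with a median log2 fold of 0.72, and 2 were called higher, beside 1.84% of all genes tested.

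Other genes of varied function among the 94 were singled out after their values were seen. pglyrp5, a peptidoglycan recognition protein gene, had 1280 and 1368 CPM in mCherry- macrophages, against 335 and 320 CPM in mCherry+ macrophage wells and 63.9 and 76.5 CPM in neutrophil wells (log2 fold 1.94, SE 0.32, edgeR adjusted p = 0.0154). CARD9, an adaptor of fungal recognition, had 309 and 306 CPM against 63.9 and 82.4 CPM (log2 fold 1.96, edgeR adjusted p = 0.0182). The gasdermin E genes gsdmea and GSDME, whose proteins form pores in membranes, had 611 and 302 CPM against 113 and 88.8 CPM and 53.4 and 88.3 CPM against 14.5 and 14.2 CPM, and 1 well held 41.4% and 51.2% of the GSDME UMIs of the mCherry- macrophages. CEBPA, a transcription factor of myeloid cells, had 475 and 601 CPM against 134 and 217 CPM. PDE4B, an enzyme that breaks down cyclic AMP, had 316 and 300 CPM against 90.0 and 66.8 CPM, with a log2 fold of 1.87 on each plate. The glucose transporter genes SLC2A6 and slc2a3b had 1321 and 1019 CPM against 494 and 360 CPM and 136 and 206 CPM against 34.8 and 43.3 CPM.

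The other genes of largest rise had varied functions, and most were low. hunk, a kinase gene, had 49.6 and 62.8 CPM in mCherry- macrophages, against 2.90 and 3.55 CPM in mCherry+ macrophage wells (log2 fold 3.90, SE 0.57, edgeR adjusted p = 0.0100), and was seen in 14 and 15 of 52 wells against 1 of 28 and 3 of 85. ace, the gene of angiotensin-converting enzyme, had 46.0 and 60.8 CPM against 0 and 4.97 CPM and 0 UMIs in neutrophil wells (log2 fold 3.75, SE 0.67, edgeR adjusted p = 0.0213). MOXD1, a copper monooxygenase gene, had 80.9 and 126 CPM against 5.81 and 11.4 CPM (log2 fold 3.36, SE 0.42, edgeR adjusted p = 0.00708). SNX10, a sorting nexin gene of endosomal traffic, had 245 and 174 CPM against 23.2 and 21.3 CPM, and UMIs in 36 and 37 of 52 wells against 6 of 28 and 17 of 85 (log2 fold 3.06, SE 0.37, edgeR adjusted p = 0.00708). cyth4a, a cytohesin gene, had 110 and 43.1 CPM against 8.71 and 4.26 CPM (edgeR adjusted p = 0.00997). OGFRL1 had 328 and 68.6 CPM against 11.61 and 18.5 CPM (edgeR adjusted p = 0.0356). cyth4a also had UMIs in 10 of 55 and 6 of 41 neutrophil wells. The next 3 genes were higher in neutrophil wells than in mCherry- macrophages on both plates. slc7a11, which brings cystine into cells for glutathione, had 237 and 88.2 CPM against 34.8 and 4.97 CPM, beside 278 and 249 CPM in neutrophil wells. hhla2a.1, of the B7 family of T cell ligands, had 129 and 19.6 CPM against 5.81 and 5.68 CPM, beside 181 and 126 CPM. sult5a1, a sulfotransferase gene, had 107 and 39.202 CPM against 5.81 and 3.55 CPM, beside 720 and 583 CPM, and its level in mCherry- macrophages was 14.8% and 6.73% of the neutrophil level.

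A single gene each of the actin and ER chaperone lists was called higher, beside 1.84% of all genes tested. marcksl1b, which regulates actin at the membrane, was seen in 52 of 52 wells on both plates, with 5699 and 3910 CPM, against 1500 and 1239 CPM in mCherry+ macrophage wells and 367 and 478 CPM in neutrophil wells (log2 fold 1.71, SE 0.31, edgeR adjusted p = 0.0225). Without the muscle-rich and globin-rich wells it still passed (adjusted p = 0.0381). It was 1 of 23 tested genes of the actin and migration list that passed. Of 14 ER chaperone genes 12 had a positive fold, with a median log2 fold of 0.72, and dnajc3a, a co-chaperone, was called, with 129 and 88.2 CPM against 40.6 and 24.9 CPM (log2 fold 1.65, SE 0.35, edgeR adjusted p = 0.0344).

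**Figure D3:**
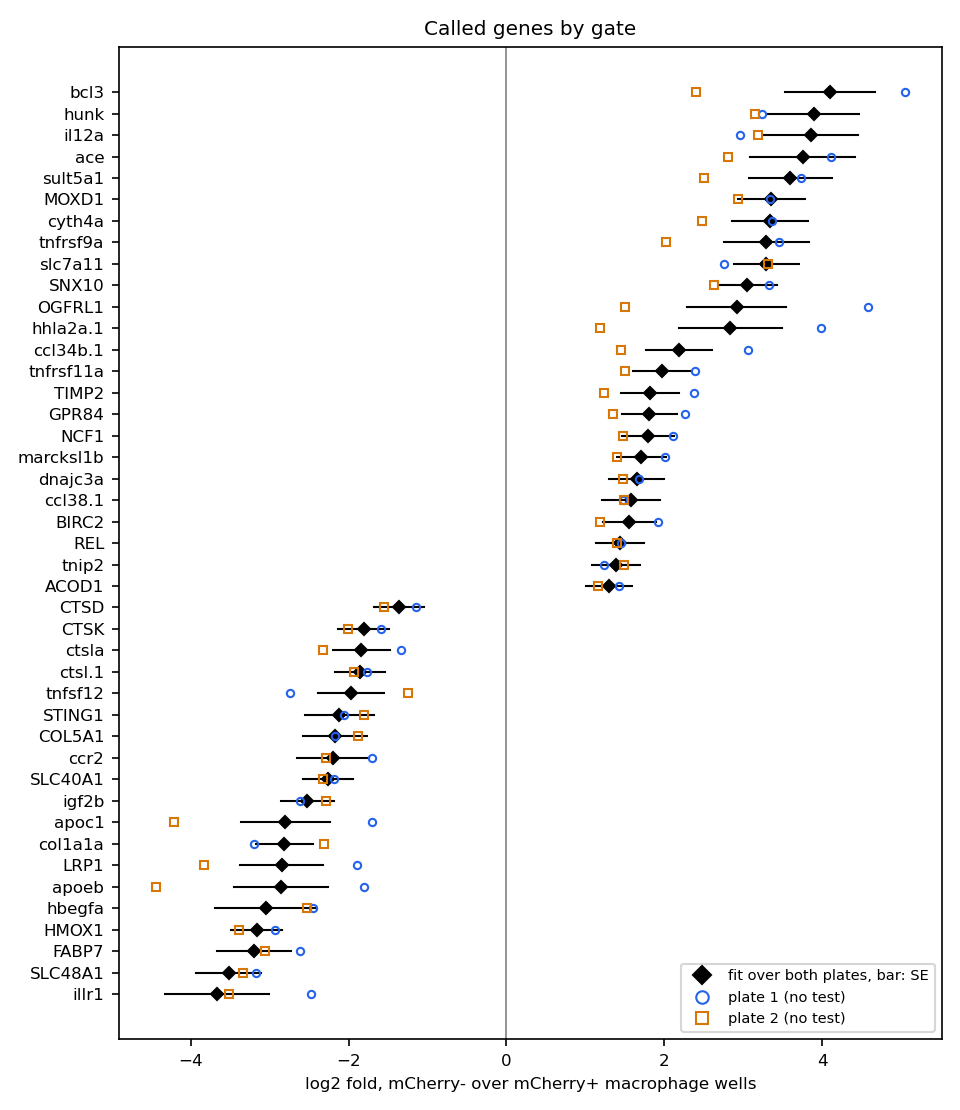
Log2 fold of mCherry- over mCherry+ macrophage wells for called genes that the text names, with the fit over both plates (diamonds, bars are SE) and the values of plate 1 (circles) and plate 2 (squares), which carry no test. For each gene shown both plates lie on the same side of 0, and the plate values of bcl3 (5.05 and 2.40) and apoc1 (-1.70 and -4.21) lie far from each other, while those of hunk and REL nearly coincide.

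To compare wells of unlike depth, each well was thinned at random to 2000 UMIs before the wells holding a gene were counted, which left 51 and 52 mCherry- macrophage wells, 28 and 84 mCherry+ macrophage wells and 53 and 38 neutrophil wells. NCF1 was then seen in 92.2% and 94.2% of mCherry- macrophage wells, against 53.6% and 60.7% of mCherry+ macrophage wells, and the exact 95% intervals of the gates did not overlap on either plate. The same held for BIRC2, with 80.4% and 67.3% against 28.6% and 31.0%. REL was seen in 70.6% and 73.1% against 39.3% and 35.7%, with overlapping intervals on plate 1. GPR84 was seen in 80.4% and 51.9% against 28.6% and 31.0%, with overlapping intervals on plate 2. bcl3 was seen in 43.1% and 11.5% against 0% and 1.19%, and SNX10 in 21.6% and 26.9% against 3.57% and 4.76%. Neutrophil wells showed 86.8% and 84.2% for NCF1, 79.2% and 55.3% for BIRC2, 67.9% and 52.6% for GPR84 and 50.9% and 50.0% for REL. All of these are genes of neutrophils too, and SNX10 was at 1.89% and 0%. Intervals cover counting error only, and wells of a plate are not replicates. The genes counted here were taken from those already called between the gates on these same wells. Intervals that do not overlap are therefore not separate support, and their share over all genes was not computed.

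**Figure D4:**
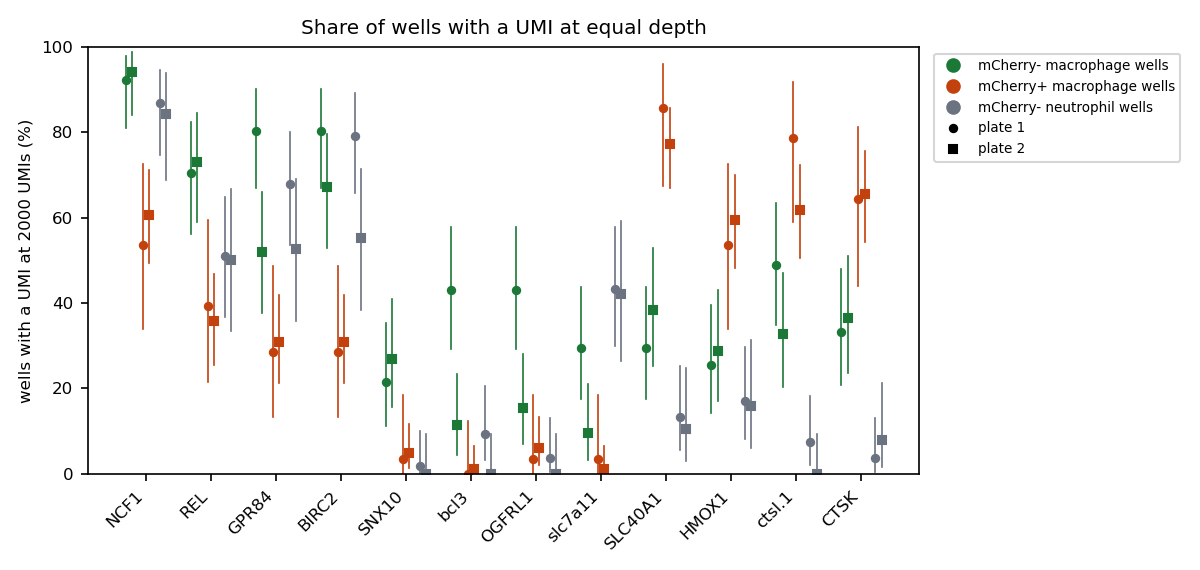
Share of wells with at least 1 UMI after every well was thinned to 2000 UMIs, with exact 95% binomial intervals, for mCherry- macrophage, mCherry+ macrophage and mCherry- neutrophil wells of plate 1 (circles) and plate 2 (squares). NCF1 is seen in 92.2% and 94.2% of mCherry- macrophage wells against 53.6% and 60.7% of mCherry+ macrophage wells, and SLC40A1 in 29.4% and 38.5% against 85.7% and 77.4%.

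Heme and iron genes were lower in the mCherry- macrophages. HMOX1 (ENSDARG00000027529), to which the names hmox1a and hmox1b were both matched, fell to 641 and 350 CPM, against 5232 and 3083 CPM in mCherry+ macrophage wells (log2 fold -3.17, SE 0.33, edgeR adjusted p = 0.00376). SLC40A1, the gene of the iron exporter ferroportin, fell to 448 and 322 CPM against 2191 and 1359 CPM (log2 fold -2.26, SE 0.32, edgeR adjusted p = 0.00979). SLC48A1, which carries heme out of the lysosome, fell to 16.5 and 7.84 CPM against 183 and 91.0 CPM (log2 fold -3.52, SE 0.41, edgeR adjusted p = 0.00634). These 3 were the lower calls among 6 tested genes of the list, whose median log2 fold was -1.52, beside 2.44% called lower of all genes tested. Without the muscle-rich and globin-rich wells the adjusted p was 0.0136 for HMOX1 and 0.0252 for SLC40A1, and without the largest well of each sum 0.0683 and 0.0725. Single wells carried much of what HMOX1 the mCherry- macrophages had, since 1 well held 43.5% of its UMIs on plate 1 and 23.7% on plate 2, and a UMI was seen in 28 of 52 wells on both plates. At equal depth HMOX1 was seen in 25.5% (14.3 to 39.6%) and 28.8% (17.1 to 43.1%) of mCherry- macrophage wells and in 16.98% (8.07 to 29.8%) and 15.8% (6.02 to 31.3%) of neutrophil wells, and these intervals overlapped on both plates.

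Genes of the lysosome and of lipid handling fell as well. Among lysosome genes 24 of 27 tested had a negative fold, with a median log2 fold of -0.82, and 4 protease genes passed, beside 2.44% called lower of all genes tested. ctsl.1, a cathepsin L gene, fell to 511 and 233 CPM in mCherry- macrophages, against 1856 and 752 CPM in mCherry+ macrophage wells (log2 fold -1.85, SE 0.32, edgeR adjusted p = 0.0182). ctsla fell to 580 and 326 CPM against 1560 and 1380 CPM, CTSK to 291 and 261 CPM against 938 and 886 CPM, and CTSD to 690 and 534 CPM against 1637 and 1319 CPM, with edgeR adjusted p of 0.0285, 0.0217 and 0.0481. None of the 15 tested V-ATPase genes, which acidify the lysosome, passed, and their median log2 fold was 0.21. In the cholesterol and lipid list 12 of 15 tested genes had a negative fold, the median log2 fold was -1.18 and 5 passed, beside the same 2.44%. The apolipoprotein gene apoeb fell to 59.0 and 3.92 CPM against 228 and 127 CPM (log2 fold -2.86, SE 0.59, edgeR adjusted p = 0.0328), and 1 well held 62.5% and 50.0% of its UMIs in mCherry- macrophages and 79.6% and 72.1% in mCherry+ macrophage wells. Without the well of each sum that held most of it, a comparison added after its values were seen and made without a test, apoeb had 22.4 and 2.03 CPM against 49.7 and 35.8 CPM. apoc1 fell to 144 and 15.7 CPM against 503 and 291 CPM, with 79.6% and 87.5% of its UMIs in 1 well in mCherry- macrophages and 50.2% and 66.5% in mCherry+ macrophage wells, and the mCherry+ wells that held most of apoeb and of apoc1 were the same on both plates. Without the well of each sum that held most of it, apoc1 had 30.6 and 1.99 CPM against 267.9 and 98.2 CPM, so a large difference remained. The fatty acid carrier gene FABP7 fell to 9.19 and 7.84 CPM against 75.5 and 74.6 CPM (edgeR adjusted p = 0.00997), and FABP3 passed as well. LRP1 (ENSDARG00000029146), an endocytic receptor gene to which the names lrp1aa and lrp1ab were both matched, fell to 33.1 and 5.88 CPM against 139 and 107 CPM (log2 fold -2.85, SE 0.52, edgeR adjusted p = 0.0225). The study picked HMOX1, SLC40A1, ctsl.1, LRP1 and c1qa on these cells, so their direction here is not independent evidence.

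Of 6 tested genes of the pattern recognition list 4 had a positive fold, with a median log2 fold of 1.08, and the 2 that passed were lower, beside 2.44% called lower of all genes tested. illr1, of a lectin-like receptor family, fell to 5.52 and 1.96 CPM in mCherry- macrophages, against 46.4 and 46.9 CPM in mCherry+ macrophage wells, and STING1, the sensor of cyclic dinucleotides, to 12.9 and 15.7 CPM against 66.8 and 52.6 CPM (edgeR adjusted p = 0.0215 and 0.0321). ENSDARG00000041190 had 0 UMIs in mCherry- macrophages, against 37.7 and 48.3 CPM in mCherry+ macrophage wells, which is at least 16.2-fold lower with a floor of 3 UMIs over both mCherry- sums (edgeR adjusted p = 0.0132). selenop, singled out after its values were seen, fell to 1160 and 851 CPM against 3353 and 2645 CPM, and the median well fell to 714 and 467 CPM against 3080 and 2417 CPM (log2 fold -1.66, SE 0.31, edgeR adjusted p = 0.0244).

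Red-cell genes had some of the lowest folds, and these came with single mCherry+ wells. hbae3, an embryonic globin gene, had 71.7 and 68.6 CPM in mCherry- macrophages, against 5645 and 1713 CPM in mCherry+ macrophage wells (log2 fold -5.55, SE 0.45, edgeR adjusted p = 0.000915), and 98.6% and 54.3% of the mCherry+ UMIs lay in 1 well of each plate. Without the muscle-rich and globin-rich wells its log2 fold was -0.12 (adjusted p = 0.902), and the HBE1 gene ENSDARG00000087390 behaved alike (-0.18, adjusted p = 0.897). cahz, alas2, hbae1.3 and the HBE1 gene ENSDARG00000045143 could then no longer be tested. The muscle genes NEB and ACTA1 had 3.68 and 25.5 CPM against 11.61 and 772 CPM and 22.1 and 94.1 CPM against 75.5 and 3886 CPM, and without those wells had adjusted p of 0.784 and 0.316. Collagen and fin genes were also carried by single mCherry+ wells. col1a1a had 68.1 and 60.8 CPM in mCherry- macrophages, against 691 and 264 CPM in mCherry+ macrophage wells (log2 fold -2.81, SE 0.36, edgeR adjusted p = 0.00708, and 0.0379 without the muscle-rich and globin-rich wells), and 1 mCherry+ well held 86.6% and 45.9% of its UMIs. Without the well of each sum that held most col1a1a, the levels were 56.2 and 44.4 CPM against 97.5 and 143.5 CPM. and1, a gene of the fin fold, had 11.0 and 3.92 CPM against 419 and 40.6 CPM (log2 fold -4.72, SE 0.51, edgeR adjusted p = 0.00420, and 0.0379), with 94.5% and 70.27% of the mCherry+ UMIs in the same wells, and without its top wells 9.39 and 2.03 CPM against 24.4 and 12.2 CPM. COL5A1, another collagen gene, had 12.9 and 21.6 CPM against 72.7 and 74.2 CPM (edgeR adjusted p = 0.024, and 0.0591), and without its top wells 9.70 and 8.08 CPM against 9.14 and 39.8 CPM, so that the difference on plate 1 was gone.

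Beside the neutrophil wells of their own gate the mCherry- macrophages had a distinct set of genes. These wells were set apart by measured genes, so the folds are a description without a test. Of 3902 genes with 50 UMIs over the 4 sums of the gate, 253 were at least 4-fold higher in macrophages on both plates and 165 at least 4-fold lower. Higher were ccl35.2 and ccl34b.1, lygl1 (1279 and 1277 CPM against 22.7 and 32.8 CPM), CLIC2, a chloride channel gene (541 and 432 against 10.3 and 8.19 CPM), FGL2, a fibrinogen-like gene (471 and 603 against 4.12 and 10.9 CPM), lgals3bp.1, a galectin-binding protein gene (675 and 1034 against 4.12 and 13.7 CPM), and ENSDARG00000008423 (1910 and 669 against 8.25 and 5.46 CPM). FGL2, lgals3bp.1 and ENSDARG00000008423 also rose against mCherry+ macrophage wells, where they had 145 and 209, 200 and 362, and 224 and 158 CPM (edgeR adjusted p = 0.0344, 0.0356 and 0.0150). Lower were the neutrophil genes npsn, a metalloprotease (145 and 88.2 CPM against 16969 and 15963 CPM), EPX, a peroxidase (110 and 88.2 against 8738 and 8343 CPM), CPA1, a carboxypeptidase (25.7 and 23.5 against 3562 and 3401 CPM), and MMP9 (58.8 and 62.8 against 4293 and 3293 CPM). lyz itself, which the rule used, had 510 and 463 CPM against 64334 and 81844 CPM.

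The mCherry- macrophages of the plates differed from each other, and each plate holds 1 sum, so no test was made. Of 1569 genes with 50 UMIs in at least 1 of these sums, 55 (3.51%) differed 4-fold or more, 32 higher on plate 2 and 23 higher on plate 1, with a median log2 fold of 0.03 over all 1569. Of the 55, 30 had the same sign in mCherry+ macrophage wells and in neutrophil wells. The same share over all 1569 genes was not computed, so this count has no background to be set against. CH25H, the enzyme that makes 25-hydroxycholesterol, led those higher on plate 2. It had 817 CPM on plate 2 and 25.7 CPM on plate 1 in mCherry- macrophages, with UMIs in 45 and 9 of 52 wells, while mCherry+ macrophage wells had 738 and 795 CPM. Its log2 fold between the gates, which also carries the TMM scaling that the CPM do not, was -0.11 on plate 2 and -4.71 on plate 1. Immediate early genes, which respond within minutes to stimuli and to tissue dissociation, went the same way, and 27 of 35 with enough UMIs were higher on plate 2 (median log2 0.74). FOS had 483 CPM on plate 2 and 49.6 CPM on plate 1, against 929 and 735 CPM in mCherry+ macrophage wells, and egr1 had 202 and 20.2 CPM, against 231 and 160 CPM. The heat shock gene hsp70.3 had 1691 and 237 CPM, against 2055 and 3151 CPM, while the chaperone genes HSP90AA1 and HSPA8 were slightly lower on plate 2. tnfb had 1680 and 265 CPM.

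Lower on plate 2 were bcl3 (45.1 CPM on plate 2 and 361 CPM on plate 1), CHST11, a chondroitin sulfotransferase gene (51.0 and 370 CPM), cdkn1ca, a cell cycle inhibitor gene (31.4 and 252 CPM), the ferritin gene fthl28 (29.4 and 413 CPM), FNIP2 (56.8 and 388 CPM), MXI1 (64.7 and 442 CPM) and the transcription factor gene klf2a (7.84 and 97.5 CPM). In mCherry+ macrophage wells bcl3 was low on both plates, and cdkn1ca had 31.97 CPM on plate 2 and 26.1 CPM on plate 1. All 11 muscle genes with enough UMIs were higher on plate 2 (median log2 1.45), a list whose share of a mCherry- macrophage well had a median of 0.622% on plate 2 and 0.170% on plate 1, and of a neutrophil well 0.666% and 0.198%. Of 11 ER chaperone genes 3 were higher on plate 2 (median log2 -0.49), and of 19 NF-kB and inflammatory response genes 7 (median log2 -0.25). Whether sort, day or embryo differed between the plates is not given in the sources used here, and their part in these differences was not tested.

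**Figure D5:**
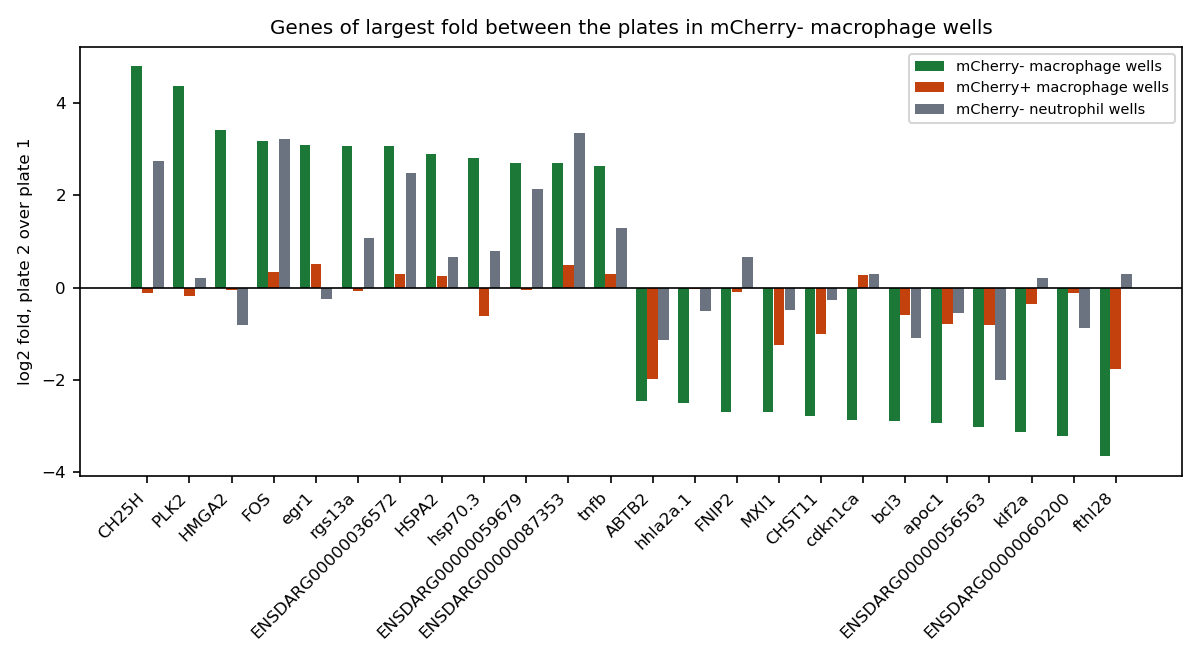
Log2 fold of plate 2 over plate 1 for the 24 genes of largest fold in mCherry- macrophage wells, beside the same fold in mCherry+ macrophage wells and in neutrophil wells of the mCherry- gate, 1 sum per plate and no test. CH25H and FOS are far higher on plate 2 in mCherry- macrophages and near 0 in mCherry+ macrophages, and ABTB2, MXI1 and fthl28 are higher on plate 1 in both macrophage groups.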

How the data were processed

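Each sample is a plate of single cells. The deposited tables hold expected counts, which the authors made from UMIs per gene and well by correcting for molecules that drew the same tag, without normalization. The submitters' processing notes name GRCz11, BWA and Seurat, without versions of the tools or their roles. A table of gene names gave a symbol to 17425 of 22342 identifiers, some in human style, and 528 of 683 listed names were matched. The others, il1b and csf1ra among them, are not analysed here, and no coordinates or sequences are given.

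UMIs were summed per gate and plate over the chosen wells and rounded, which gave 4 sums. Genes of low count were dropped by filterByExpr, TMM factors were computed, and the test was that of edgeR 4.0.16 (R 4.3.3, quasi-likelihood F test) with the plate as a block, since both gates of a plate were processed together per the labels. p-values were adjusted by Benjamini-Hochberg over all genes tested. The fit has 1 residual degree of freedom and 8.07 prior ones. It was run on simulated sums with the same dispersion for every gene. That simulation held no single wells, so it cannot show how the fit handles sums in which 1 well stands apart. Plate folds are log2 CPM with a prior count of 2. SE come from the F statistic. No test was run against neutrophil wells or between plates.

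Named genes were the 12 of largest rise and fall past the threshold with 50 UMIs or more and 1 direction on both plates, called genes of the signal lists, cytokine and chemokine genes with 20 UMIs or more in the mCherry- macrophages, the 15 most abundant genes, the 12 of largest fold in the descriptions and up to 4 called genes per list. The ranking of abundant genes left out mitochondrial and ribosomal protein genes. The wells, lists and rules were chosen with earlier results of these data known. Doublets were not called. Alternatives covered depth, marker and lyz limits, thinning, scaling, filter, block, DESeq2 1.42.0 and wells left out. The values of 1 called gene are not reported here.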

Additional observations from a re-analysis of the deposited data

How the results depend on the processing

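The count of called genes depended strongly on which wells were summed and on the fit. It was 219 (94 higher and 125 lower in mCherry- macrophages), and 3 (0 and 3) without the largest well of each sum, 7 (0 and 7) with at least 6 marker UMIs, 120 (43 and 77) without c1qa among the markers, 80 (31 and 49) of 1468 tested with wells thinned to 2000 UMIs, 543 (192 and 351) of 18677 tested without the filter on low counts, 22 (5 and 17) with no replicate block and 94 (36 and 58) with the DESeq2 Wald test. Alternatives chosen after seeing the data gave 61 (18 and 43) without muscle-rich wells and 30 (8 and 22) without muscle-rich and globin-rich wells. Unadjusted p under 0.05 numbered 932 at first, 841 without the largest wells, 827 with at least 6 marker UMIs and 855 without the muscle-rich and globin-rich wells, and the prior degrees of freedom were 8.07, 4.53, 4.84 and 5.48. The other counts, with 1000 or 2000 UMIs per well, lyz under 0.5%, no globin-rich wells, DESeq2 size factors or library totals, lay between 180 and 276.

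The 64 called named genes kept their direction in all 908 alternatives run, and lost the threshold in 316 of them. They were picked by the first fit on mostly the same wells, so a kept direction is not independent support. With 1 plate left out no degree of freedom remains among the sums, so each plate gives a value with no test. The sums of few wells limit what can be called, and genes under about 20 UMIs could not be compared.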
